A study of Mus musculus with 28 samples.

Results

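The clustered protocadherins are cell surface adhesion proteins encoded in 3 neighbouring gene clusters on mouse chromosome 18. Their members were taken as every row of the deposited RNA count table whose Ensembl identifier maps to a symbol that starts with Pcdha, Pcdhb or Pcdhg. There were 58 such rows among the 55385 of the table, 14 of the α cluster, 22 of the β cluster and 22 of the γ cluster. They carry 57 different symbols, because 2 rows, ENSMUSG00000007440 and ENSMUSG00000102206, both map to Pcdha11, while none maps to its neighbour Pcdha10. Which member each of these 2 rows measures was not settled, and they are given by identifier. In GRCm38.p6 the start of the first to the end of the last member spans 36930285 to 37188897 for α, 37264998 to 37521419 for β and 37661775 to 37841873 for γ.

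The α and γ clusters are built from many variable first exons, each with a promoter of its own, that are spliced to constant exons shared by the whole cluster, while each β gene is a single exon. A neuron is known to use only a few of the alternate members, chosen largely at random, and to express C-type members (Pcdhac1, Pcdhac2, Pcdhgc3, Pcdhgc4 and Pcdhgc5) more uniformly. The proteins form mixed complexes in the membrane that bind only matching complexes on another membrane, and this lets the branches of a neuron recognise and avoid each other. Promoter choice is known to involve DNA methylation, the insulator protein CTCF with cohesin, and enhancers that lie beyond the variable exons.

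The study followed P19 cells, a mouse embryonal carcinoma line that retinoic acid turns towards the neural lineage. RNA was sequenced from 5 groups with 2 libraries each. Day 0 cells were untreated, day 4 cells, labelled as neural stem or progenitor cells, had 1 µM retinoic acid, and day 8 cells, labelled as neurons, were replated at day 4 on poly-D-lysine in medium with B27 and kept for 4 more days. In a second arm, cells in 1 µM retinoic acid received 1 µL of either DMSO or 10 mM MS-275 (entinostat, an inhibitor of class I histone deacetylases) at day 1 and were collected at day 2, so both of its groups had retinoic acid. ChIP-seq peak lists for H3K9ac, H3K9cr and H3K18la (acetylation, crotonylation and lactylation of histone H3 lysines) were made from 2 libraries for each mark at day 4, and from a single library for each mark in each of the DMSO and MS-275 groups. Another 2 lists of day 4 hold ATAC-seq peaks, which mark open chromatin, so there were 14 lists in all.

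Library totals ranged from 18115926 to 19586374 estimated counts. Levels are given as CPM (counts relative to the library total, scaled by the trimmed mean of M-values), and error as SD over 2 libraries. This scaling lowered the values of the MS-275 libraries by 0.14 on the log2 scale relative to the DMSO libraries. A member was called changed at an adjusted p under 0.05 in edgeR's quasi-likelihood test across 17789 genes. All members but Pcdhb1 passed the filter on low counts. The labels do not say that the libraries came from separate cultures, so the p-values measure the spread between these libraries. The comparisons share control samples (day 0, day 4 or DMSO) and are therefore given side by side. Levels are of bulk RNA, in which fewer cells using a member and less RNA per cell cannot be told apart.

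The cell labels were checked against marker genes. The summed level of 10 neuronal markers was 428 to 437 CPM at day 0, 2702 to 2809 at day 4 and 3689 to 3943 at day 8. That of 8 neural progenitor markers was 554 in both libraries at day 0, 3185 to 3370 at day 4 and 2257 to 2338 at day 8. That of 8 pluripotency markers was 2219 to 2243 CPM at day 0, 4.04 to 5.61 at day 4, with Dppa5a, Dppa4 and Zfp42 at 0, and 53.5 to 62.3 at day 8. The summed level of 9 fibroblast and mesenchyme markers was 227 to 242 CPM at day 0, 803 to 917 at day 4 and 1203 to 1254 at day 8, so markers of other cells moved with time as well, and their part in the changes below was not tested.

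Over days 0, 4 and 8 the summed RNA of each cluster was lowest at day 0 and highest at day 8. The α total was 45.7 ± 1.91 CPM at day 0, 221 ± 5.83 at day 4 and 368 ± 15.4 at day 8. The β total was 57.7 ± 6.74 CPM at day 0, 616 ± 14.2 at day 4 and 675 ± 8.83 at day 8. The γ total was 132 ± 2.87 CPM at day 0, 570 ± 0.390 at day 4 and 793 ± 68.9 at day 8. No library of a later day overlapped one of an earlier day in any cluster. From day 0 to day 4 the β total rose 10.7-fold (9.69 to 11.8 over the 4 pairs of libraries), the α total 4.83-fold (4.61 to 5.07) and the γ total 4.30-fold (4.24 to 4.37). From day 4 to day 8 the order was different, with 1.67-fold for α, 1.39-fold for γ and 1.1-fold for β. No test was run on these sums, which do not depend on how reads of shared exons were divided among the members of a cluster.

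**Figure D1:**
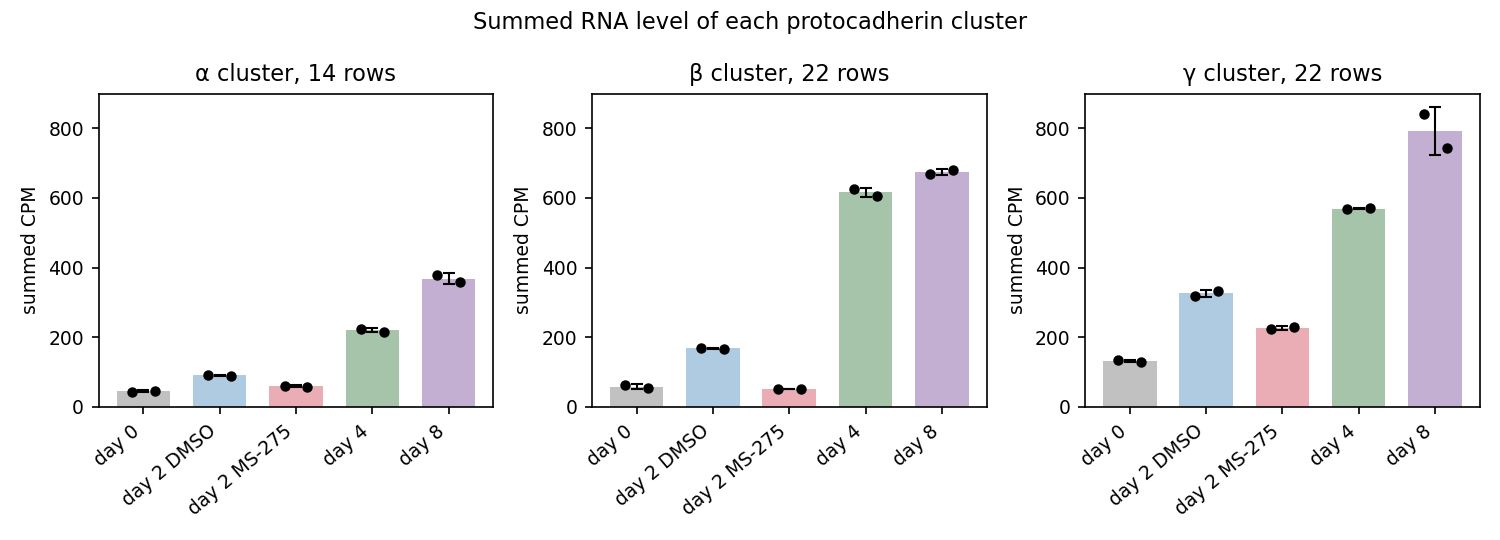
Summed level of the members of the α, β and γ clusters in CPM (y axis) for each of 5 groups (x axis). Bars are means, error bars SD over 2 libraries and points the libraries. The β total went from 57.7 CPM at day 0 to 616 at day 4, and was 52.5 with MS-275 against 168 with DMSO at day 2.

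More members were detectable as the cells differentiated. At least 1 CPM in both libraries was reached by 46 of 58 rows at day 0, 54 at day 4 and 56 at day 8. At least 10 CPM in both was reached by 4 rows at day 0, 37 at day 4 and 41 at day 8. The median level of a member was 3.0 CPM at day 0, 13.8 at day 4 and 23.1 at day 8. Pcdhb1 stayed between 0 and 0.158 CPM in all 10 libraries.

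**Figure D2:**
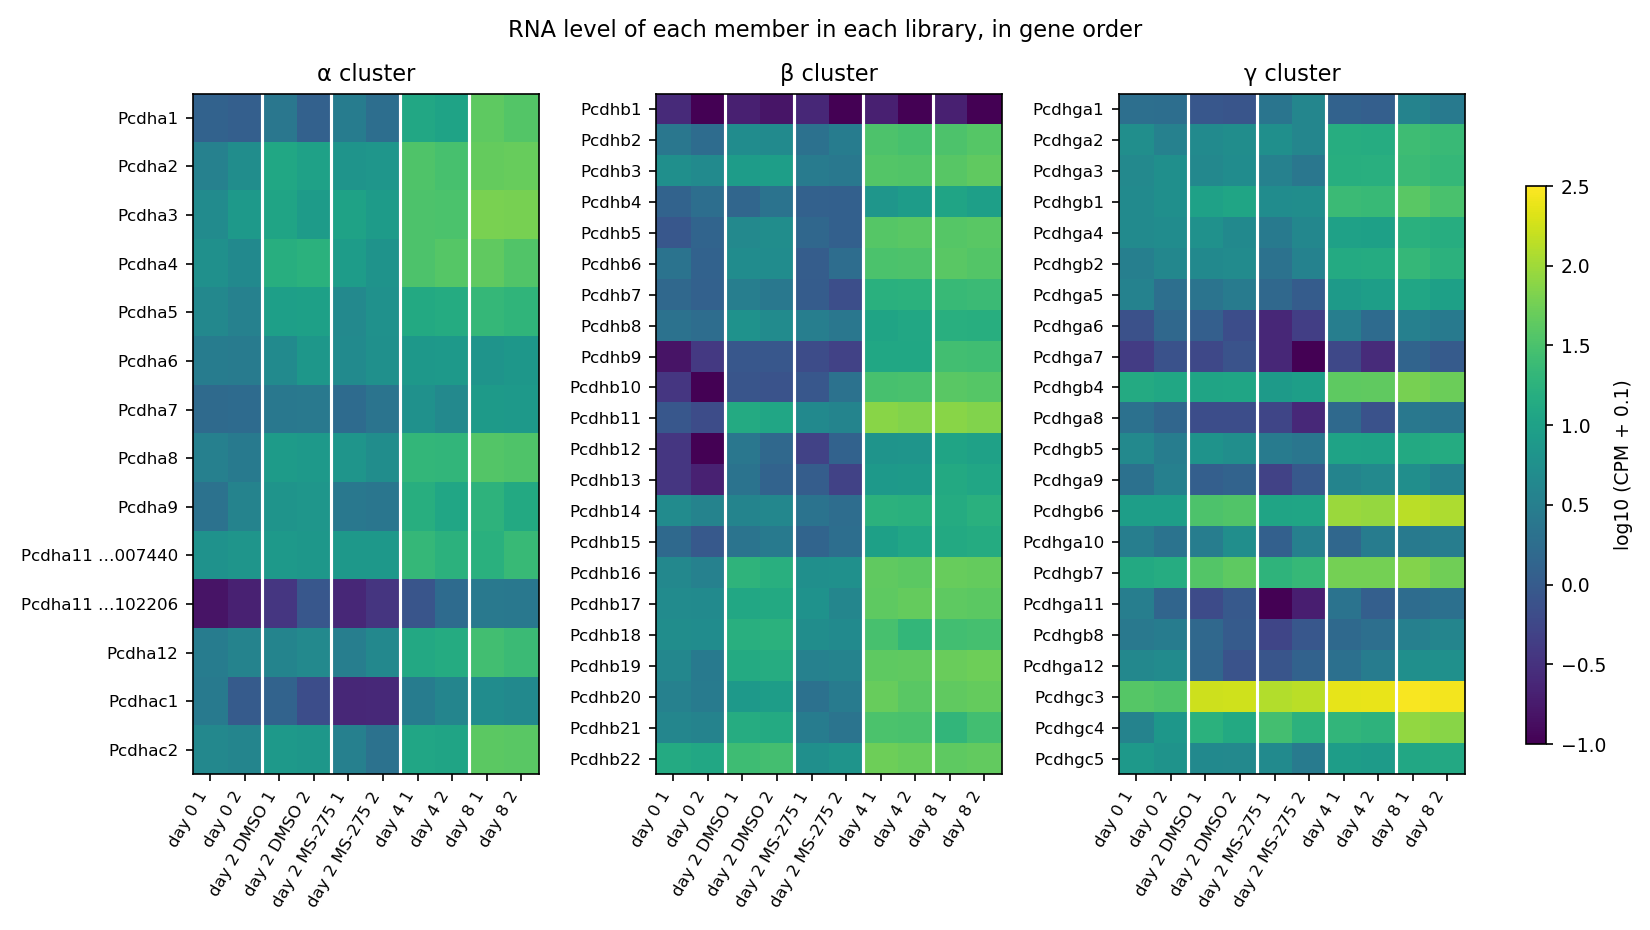
Level of each of the 58 rows (y axis, in gene order) in each of 10 libraries (x axis), as log10 of CPM with 0.1 added. Libraries of a group resemble each other, the late γA members (Pcdhga6 to Pcdhga12) together reach only 4.39 to 20.8 CPM in the group means, and Pcdhgc3 is the brightest row in every library.

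Of the 57 members tested, 48 rose and 1 fell between day 0 and day 4, and 8 were not called. Over all genes tested 72.3% were called in this comparison, 36.2% higher and 36.1% lower. The median log2 fold change of the members was 2.23, against 0.01 over all genes. All 14 α rows rose, with a median of 2.19, and all 21 β members tested rose, with a median of 3.68. In the γ cluster 13 members rose, Pcdhga12 fell and 8 were not called. The β and α clusters thus moved as a whole, and the γ cluster was mixed.

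Among α members the 12 alternate rows rose by 1.41 to 3.70 on the log2 scale. Pcdha1, the first variable exon of the cluster, was at 1.16 and 1.06 CPM at day 0, 12.4 and 10.7 at day 4, and 42.9 and 36.7 at day 8. Its groups did not overlap, and it rose by 3.37 (SE 0.27, adjusted p = 5.49e-09) to day 4 and by 1.79 to day 8. The α rows with the highest CPM were Pcdha4 and Pcdha3, at 35.3 and 32.6 CPM at day 4. These 2 α values are not per length, because exon lengths of the α and γ members were not used here. The row ENSMUSG00000102206, which may be Pcdha11 or Pcdha10, stayed low, at 0.0525 and 0.112 CPM at day 0 and 0.734 and 1.55 at day 4. Its rise of 3.70 was the largest of the α rows and became 3.03 with day 4 replicate 2 left out.

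Among β members the largest rises lay in one run of neighbours, Pcdhb9 to Pcdhb13, a range picked out after its values were seen. Their summed level was 1.29 CPM at day 0 and 129 at day 4, a ratio of 100 (77.9 to 138 over the pairs of libraries). Pcdhb2 to Pcdhb8, on one side, summed to 14.2 CPM at day 0 and 175 at day 4, a ratio of 12.3. The largest rise among them, 5.26 on the log2 scale, was close to the smallest of the run, 5.31. Pcdhb14 to Pcdhb22, on the other side, summed to 42.1 and 312 CPM, a ratio of 7.40. These sums run over 5, 7 and 9 members, so only their ratios are compared.

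Pcdhb11 carried most of that run. It was at 0.788 and 0.560 CPM at day 0, 75.4 and 69.7 at day 4, and 74.7 and 67.6 at day 8. All day 4 and day 8 libraries were far above both day 0 libraries, and the log2 fold change to day 4 was 6.73 (SE 0.16, adjusted p = 9.66e-16). The 4 other members of the run were near the limit of detection at day 0. Pcdhb10 was at 0.263 and 0 CPM at day 0 and 29.7 and 30.8 at day 4, with a log2 fold change of 7.73. The size of such a rise depended on the few reads of day 0. Pcdhb10 was at 6.81 with day 0 replicate 2 left out, and with the other day 0 library left out the remaining one had no read. Pcdhb12 (5.51) was at 4.58 without day 0 replicate 2 and had no read in that library either. When day 0 replicate 1 was left out, Pcdhb9 (6.15) was at 5.39 and Pcdhb13 (5.31) at 6.03. When replicate 2 was left out, they were at 7.67 and 4.85.

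Per kilobase of the single exon, which allows β members to be ranked, the leader changed with time. Pcdhb22, the last β gene, was first at day 0, at 4.30 ± 0.314 CPM per kilobase, followed by Pcdhb17 at 1.43 ± 0.0160 and Pcdhb21 at 1.39 ± 0.0916. Pcdhb17 and Pcdhb21 differed by less than their spread. At day 4 Pcdhb11 was first at 20.1 ± 1.13 and Pcdhb22 was next at 16.6 ± 0.916, and at day 8 they were at 19.7 ± 1.39 and 14.3 ± 0.585. Pcdhb11 had ranked 17 of 22 at day 0.

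In the γ cluster the A, B and C subfamilies moved differently. Of 12 γA members 5 rose, 1 fell and 6 were not called to day 4 (median log2 0.18). Of 7 γB members 6 rose (median 1.95), and of 3 γC members 2 rose (median 1.85). The split within γA followed position: 4 of the 5 members from Pcdhga1 to Pcdhga5 rose, with sums of 18.4 CPM at day 0 and 49.9 at day 4, while Pcdhga6 to Pcdhga12 summed to 14.9 and 13.7 CPM. This division into early and late γA members was made after the values were seen. Pcdhga6, the 1 late γA member called higher, lost its call without day 4 replicate 1 (log2 0.57) and without day 0 replicate 1 (0.71), and was at 1.85 without day 0 replicate 2. Pcdhga12 was at 4.15 and 4.82 CPM at day 0, 1.89 and 2.89 at day 4, and 5.47 and 5.56 at day 8. Its day 4 libraries lay below all others of the time course, and it fell by 0.91 (SE 0.30, adjusted p = 0.0124). That call was lost without day 4 replicate 1 (adjusted p = 0.0997) and without day 0 replicate 2 (0.0675).

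γB members interleave with γA members along the chromosome, so neighbours of different subfamilies could be compared. Pcdhgb6 was at 9.08 CPM in both day 0 libraries, 94.2 and 89.5 at day 4, and 137 and 117 at day 8. It rose by 3.34 (SE 0.10, adjusted p = 9.94e-15), the largest rise of the γ cluster, with no overlap between groups. Its neighbours Pcdhga9 and Pcdhga10 were at 3.67 and 4.27 CPM and at 1.36 and 2.89 CPM at day 4, and neither was called. Pcdhgb8, which lies between Pcdhga11 and Pcdhga12, was the γB member not called. It was at 2.52 and 2.86 CPM at day 0 and 1.47 and 1.78 at day 4, so not every pair of neighbours differed. The γ members share their last exons, and reads from those exons alone do not tell the members apart. Of the nonzero γ values 98.2% were not whole numbers (tolerance 1e-06). The share was 100% of α and 61.2% of β values, against 58.8% over all genes.

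**Figure D3:**
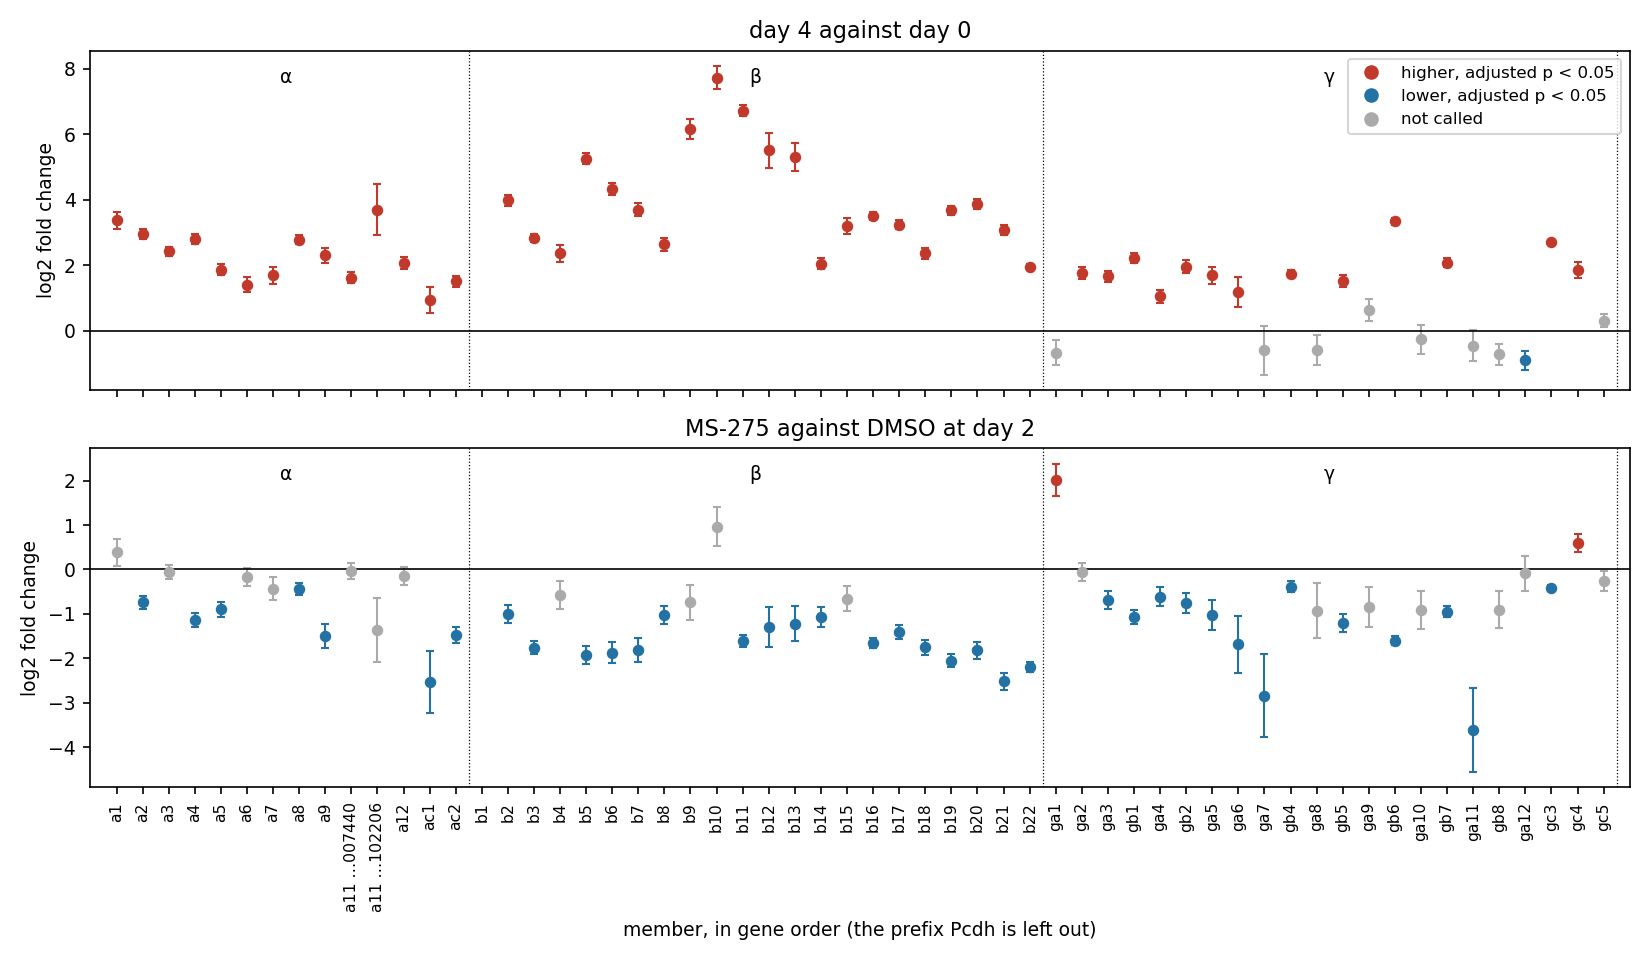
Log2 fold change (y axis) of each member in gene order (x axis) at day 4 against day 0 (top) and with MS-275 against DMSO at day 2 (bottom). Bars are standard errors, red and blue mark adjusted p under 0.05, and Pcdhb1 was not tested. Red points fill the α and β clusters in the top panel, with the peak at Pcdhb9 to Pcdhb13, and blue points fill most of β in the bottom panel.

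Between day 4 and day 8 the changes were smaller: 26 members rose, 1 fell and 30 were not called, with a median of 0.42 against 0.00 over all genes. Over all genes 41.5% were called, 21.7% higher and 19.8% lower. The α cluster had 8 of 14 rows higher, the γ cluster 13 of 22 and the β cluster 5 of 21. Of the 27 calls, 14 held whichever library was left out. Without day 8 replicate 1, in which the γ total was the higher of the 2, 17 members were called higher.

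The largest called rises of this step were those of 2 C-type members, Pcdhgc4 and Pcdhac2, while the median of the 5 C-type members was 0.58. Pcdhac1 was not called, and Pcdhgc5 (0.58) lost its call whichever library was left out. Pcdhgc4, a member known to be needed for the survival of neurons, was at 3.62 and 6.95 CPM at day 0, 19.7 and 18 at day 4 and 84.2 and 76.5 at day 8. Its 3 groups were separate, and it rose by 1.85 (SE 0.25) to day 4 and by a further 2.09 (SE 0.18, adjusted p = 1.12e-07) to day 8. Pcdhac2, known for its role in the spacing of serotonergic axons, was at 4.20 and 3.75 CPM at day 0, 11.6 and 11.1 at day 4, and 41.6 and 40.5 at day 8. Its groups did not overlap, and its larger rise was again the later one, at 1.85 (SE 0.13, adjusted p = 7.69e-09). Pcdha1 (1.79), Pcdhga1 (1.5) and Pcdhga12 (1.21) followed. The call for Pcdhga12 was lost without day 4 replicate 1 (adjusted p = 0.0543).

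Pcdhgc3, known for a part in the branching of dendrites, had the highest CPM of all members in every group. It was at 38.2 and 34.2 CPM at day 0, 232 and 239 at day 4, and 296 and 273 at day 8. It rose early, by 2.70 (SE 0.07, adjusted p = 2.00e-15) to day 4, and by 0.27 (adjusted p = 0.00167) to day 8. Its share of the γ counts was 27.3% at day 0, 41.4% at day 4 and 35.9% at day 8. The C-type members Pcdhgc5 and Pcdhac1 were well below Pcdhgc3. Pcdhgc5 was at 7.61 and 6.11 CPM at day 0 and 8.86 and 8.16 at day 4 (adjusted p = 0.164). Pcdhac1 was at 2.57 and 0.897 CPM at day 0 and 2.88 and 3.77 at day 4. Pcdhac1 was called higher at 0.93 (adjusted p = 0.0468), but at 1.06 (adjusted p = 0.0654) without day 4 replicate 1, at 0.68 without day 4 replicate 2 and at 0.36 without day 0 replicate 2 it was not, and without day 0 replicate 1 it was at 1.88.

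The 1 member called lower at day 8 was Pcdhb21, at 32.1 and 31.6 CPM at day 4 and 20.1 and 27.5 at day 8. It fell by 0.42 (adjusted p = 0.0142), with no overlap. The call was lost when day 8 replicate 1 (adjusted p = 0.187) or day 4 replicate 1 (0.0667) was left out, and in DESeq2 (0.0763). Among β members Pcdhb9 had the largest further rise, from 12.2 and 11.9 CPM to 27.8 and 26.2 (log2 1.16, adjusted p = 9.02e-06). Over the whole course, day 8 against day 0, 51 of 57 members were higher and 6 were not called, where 75.2% of all genes were called, 38.1% higher and 37.1% lower. The members' median was 2.76. The lowest value was that of Pcdhga11, at -0.29, which was not called. Its groups overlapped, at 2.99 and 1.29 CPM at day 0 and 1.65 and 1.85 at day 8.

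The rise had begun by day 2 in retinoic acid with DMSO, a comparison with day 0 that was added after the data had been seen. The totals at day 2 were 91.0 ± 1.65 CPM for α, 168 ± 0.319 for β and 326 ± 8.85 for γ, which were 1.99, 2.91 and 2.46 times those of day 0. Of the members 35 rose, 7 fell and 15 were not called, where 64.6% of all genes were called, 32.4% higher and 32.2% lower. Pcdhgc3 was at 171 and 176 CPM, so most of its rise to day 4 was present, and its log2 fold change was 2.26 (SE 0.07, adjusted p = 4.48e-14). Pcdhb11 was at 13.5 and 11.5 CPM, a log2 change of 4.20 (adjusted p = 1.94e-11). Pcdhb12 (3.75), Pcdhb13 (3.06) and Pcdhb5 (2.23) followed. The value of Pcdhb12 was 2.82 with day 0 replicate 2 left out, and that of Pcdhb13 was 3.79 with replicate 1 left out.

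The 7 members lower at day 2 were all in the γ cluster, 5 of them γA members. Pcdhga12 was at 1.31 and 0.682 CPM, a fall of 2.15 (adjusted p = 3.15e-05) from day 0, and kept its call whichever library was left out. The others were Pcdhga1, Pcdhga8, Pcdhga9, Pcdhga11, Pcdhgb8 and Pcdhgc5, between -1.64 and -0.64. Each of these 6 lost its call when at least 1 library was left out, and the value of Pcdhga11 was -0.91 (adjusted p = 0.229) without day 0 replicate 1, -1.33 (0.101) without DMSO replicate 1 and -2.12 without day 0 replicate 2. Rising β members and falling γA members were thus measured in the same libraries.

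Most members were lower with MS-275. With MS-275 against DMSO at day 2, 37 of 57 members fell, 2 rose and 18 were not called, with a median of -1.0 against 0.01 over all genes. Over all genes 63.3% were called, 31.9% higher and 31.4% lower. Of the members 27 were called at least 2-fold lower and 1 at least 2-fold higher. Of the 17789 genes tested 1075 were called at least 2-fold lower and 3384 at least 2-fold higher. The β cluster was lowered most: its total was 52.5 ± 0.411 CPM with MS-275 and 168 ± 0.319 with DMSO, a ratio of 0.313 (0.310 to 0.315 over the pairs of libraries), and was close to the 57.7 ± 6.74 of day 0. The α total was 59.5 ± 2.73 against 91.0 ± 1.65 CPM (ratio 0.654) and the γ total 227 ± 5.09 against 326 ± 8.85 (ratio 0.697). In the β cluster 17 of 21 members fell, in α 7 of 14 and in γ 13 of 22.

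Among β members the largest falls were those of Pcdhb21 and Pcdhb22, at the end of the cluster. Pcdhga11, Pcdhga7 and Pcdhac1, which had few reads and are described below, had lower log2 values. Pcdhb21 was at 14.6 and 13.6 CPM with DMSO and 2.82 and 2.09 with MS-275. The conditions were far apart, and the log2 change was -2.52 (SE 0.18, adjusted p = 4.87e-09). Pcdhb22 was at 26.1 and 28.7 CPM with DMSO and 5.49 and 6.46 with MS-275, below its 13.9 and 12.5 at day 0, and fell by 2.19 (SE 0.11, adjusted p = 7.36e-11). Pcdhb19 (-2.05), Pcdhb5 (-1.93) and Pcdhb6 (-1.87) came next in the cluster. Pcdhb11, which rose to day 2, was at 4.45 and 3.73 CPM with MS-275, between its levels at day 0 and with DMSO, with a log2 change of -1.61. The 4 β members not called were Pcdhb4, Pcdhb9, Pcdhb10 and Pcdhb15. Pcdhb10 was at 0.733 and 0.682 CPM with DMSO and 0.792 and 1.99 with MS-275 (log2 0.97, adjusted p = 0.0632), and the value was 0.16 without MS-275 replicate 2 and 1.48 (adjusted p = 0.00385) without replicate 1. The calls of Pcdhb12 (-1.30) and Pcdhb13 (-1.22) each rested on single libraries. With MS-275 replicate 1 left out Pcdhb12 was at -0.73 (adjusted p = 0.192), and with replicate 2 left out at -2.25. For Pcdhb13 these values were -2.02 and -0.72 (adjusted p = 0.143), and both calls were also lost when DMSO replicate 1 was left out (adjusted p = 0.203 and 0.185).

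C-type members differed in their values. Pcdhgc3 was at 171 and 176 CPM with DMSO and 125 and 135 with MS-275, a small fall of 0.41 (SE 0.06, adjusted p = 2.13e-05) with no overlap, and it held 53.1% of the γ counts with DMSO and 57.3% with MS-275. Pcdhac2 was at 7.64 and 6.93 CPM with DMSO and 3.27 and 1.99 with MS-275 (-1.47, SE 0.18, adjusted p = 3.02e-06). Pcdhac1 was at 1.20 and 0.568 CPM with DMSO and 0.148 and 0.149 with MS-275 (-2.53, adjusted p = 0.00449), and was at -1.89 (adjusted p = 0.0792) without DMSO replicate 1. Pcdhgc5 was not called (adjusted p = 0.333). Pcdhgc4 was at 17.0 and 13.2 CPM with DMSO and 28.3 and 17.4 with MS-275, and was called higher at 0.60 (adjusted p = 0.0175). Its lower MS-275 library was close to the higher DMSO library, and the call was lost without MS-275 replicate 1 (log2 0.20, adjusted p = 0.414), without DMSO replicate 2 (adjusted p = 0.171) and in DESeq2 (0.163).

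The other member called higher was Pcdhga1, the first γ gene, at 0.785 and 0.739 CPM with DMSO and 2.23 and 3.98 with MS-275. It rose by 2.02 (SE 0.37, adjusted p = 1.60e-04), kept its call whichever library was left out, and was at 1.79 and 1.74 CPM at day 0 and 1.15 and 1.05 at day 4. Both DMSO libraries were below those of every other group. Of the γB members 6 of 7 fell, with Pcdhgb6 at 32.8 and 35.4 CPM with DMSO and 11.1 and 11.2 with MS-275 (-1.61, adjusted p = 6.03e-10). Some γA members were almost unread with MS-275: Pcdhga11 was at 0 and 0.0995 CPM and Pcdhga7 at 0.148 and 0, against 0.523 and 0.852 and 0.471 and 0.682 with DMSO. Among α members Pcdha9 (-1.50) and Pcdha4 (-1.15) fell most of the alternate rows, and Pcdha3 was at 10.8 and 8.35 CPM with DMSO and 10.2 and 8.25 with MS-275. In the same libraries the fibroblast and mesenchyme markers summed to 64.6 to 70.4 CPM with DMSO and 544 to 590 with MS-275 (6 rose, 2 fell). The neuronal markers summed to 426 to 464 and 550 to 574 CPM, and 5 of the 10 rose and 3 fell. The neural progenitor markers summed to 1000 to 1005 CPM with DMSO and 1098 to 1166 with MS-275. Of those 8 markers 3 rose and 5 fell (median -0.61). The pluripotency markers summed to 51.5 to 53.7 CPM with DMSO and 130 to 134 with MS-275, with Zfp42 at 0 in both, and all 6 of them that were tested rose (median 2.02), so they moved opposite to most members. The part of these markers in the changes of the members was not tested.

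Other genes of the pathway were described from fixed lists. Of 26 genes known to control the clusters 8 rose, 16 fell and 2 were not called from day 0 to day 4 (median -0.26), and 5 rose and 18 fell with MS-275 (median -0.38). Over all genes 36.2% rose and 36.1% fell to day 4, and 31.9% rose and 31.4% fell with MS-275. Dnmt3b, a DNA methyltransferase that methylates the promoters of alternate members in the early embryo, was at 1171 CPM at day 0, 53.5 with DMSO, 198 with MS-275 and 11 at day 4. It fell by 6.72 to day 4 and rose by 1.89 with MS-275. Its partner Dnmt3l rose by 4.65 with MS-275, from 0.109 to 2.90 CPM. Ctcf, which encodes the insulator protein, was at 163 CPM at day 0 and 175 at day 4 (adjusted p = 0.0770), and fell by 0.80 with MS-275, from 198 to 114 CPM. Rad21, a cohesin subunit, fell by 0.66 and Tet3, which oxidises methylated cytosine, fell by 1.13 with MS-275. In the separate time course they rose by 0.17 and 1.53 from day 0 to day 4. Smchd1, which silences alternate members, fell by 0.27 to day 4 and fell by 0.52 with MS-275.

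Of 24 partners and effectors 14 rose and 4 fell to day 4 (median 0.21), and 10 rose and 8 fell with MS-275 (median 0.01). The 18 called, or 75%, were close to the 72.3% of all genes called to day 4, and stand beside 63.3% with MS-275. Of 12 protocadherins outside the clusters 11 rose and 1 fell to day 4 (median 4.20), with Pcdh8 at 9.49 and Pcdh10 at 8.99 the highest, and Pcdh1 the one that fell. With MS-275, 5 of them rose, 4 fell and 3 were not called (median 0.60), where the median of the clustered members was -1.0. Pcdh8 (-1.95) and Pcdh19 (-1.23) fell and Pcdh10 (2.15) rose. Of 17 cadherins 10 rose and 5 fell to day 4 and 9 rose and 3 fell with MS-275, where 36.2% and 36.1% of all genes rose and fell to day 4 and 31.9% and 31.4% with MS-275.

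Peaks of the authors' lists were counted at the 57 RefSeq start sites of the member symbols, within 1 kb, and at day 4 only where both lists of a mark had one. The background was 16800 start sites of protein-coding genes of the count table, taken from a promoter table. That table holds no entries of the chromosome of the clusters, so the background comes from other chromosomes. Where compared, 58.8% of the background start sites equalled the RefSeq gene start, the definition used for members. At day 4 an H3K9ac peak lay at 42 of 57 start sites (background 61.8%), or 12 of 13 for α, 19 of 22 for β and 11 of 22 for γ. H3K9cr lay at 41, all of which also had H3K9ac (background 60.7%). H3K18la lay at 17 (background 51.3%) and ATAC peaks at 13 (background 50.5%), both shares of 57 under the background, which was not tested. The ATAC count rests on the second list, since 25 start sites had a peak in the first list and 16 in the second. The H3K9ac summits lay a median of 148 and 180 bases after the start in the 2 lists.

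**Figure D4:**
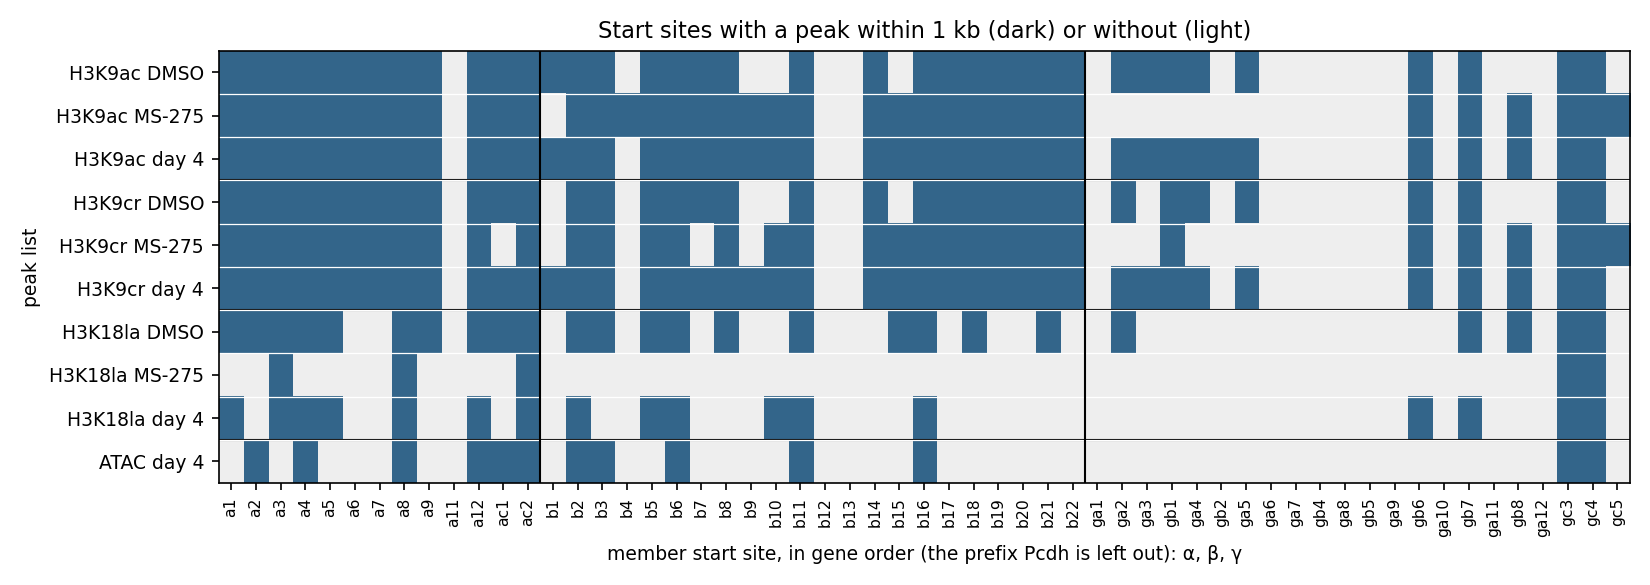
Peaks (dark) within 1 kb of each of 57 member start sites in gene order (x axis) in 10 kinds of list (y axis). Cells of day 4 kinds are dark only where both lists had a peak. The H3K9ac and H3K9cr rows hold a peak at 11 or 12 of 13 α start sites and at 15 to 19 of 22 β start sites, the γ rows are empty from Pcdhga6 on except for Pcdhgb6, Pcdhgb7, Pcdhgb8 and the C-type members, and the MS-275 row of H3K18la has 5 dark cells.

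Start sites differed in how many kinds of list had a peak there. A day 4 kind was counted only where both of its lists had a peak, so a single list may hold others. For H3K9ac at day 4 the single lists had a peak at 43 and 44 start sites, and both had one at 42. None of the 10 kinds was counted at 13 start sites: Pcdha11, Pcdhb12, Pcdhb13, Pcdhga1, all of Pcdhga6 to Pcdhga12, Pcdhgb4 and Pcdhgb5. At 4 start sites every kind was counted: Pcdha8, Pcdhac2, Pcdhgc3 and Pcdhgc4. The rest of the 57 had a peak in some kinds only. The share of background start sites with no peak in any kind was not computed. For H3K9ac alone, 33.7% of background start sites and 24.6% of member start sites had no peak in either list of day 2. Members with an H3K9ac peak at day 4 had a median level of 19.6 CPM (0.0525 to 236, n = 42), and those without one 3.18 CPM (0.319 to 43.2, n = 14). The highest without a peak was Pcdhgb4, at 43.0 and 43.5 CPM, and the lowest with one was Pcdhb1. Members with H3K18la had a median of 32.6 CPM (11.4 to 236, n = 17) and those without it 10.4 (0.0525 to 50.9, n = 39). These levels are not per length and members of a cluster share reads, so no test was made.

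**Figure D5:**
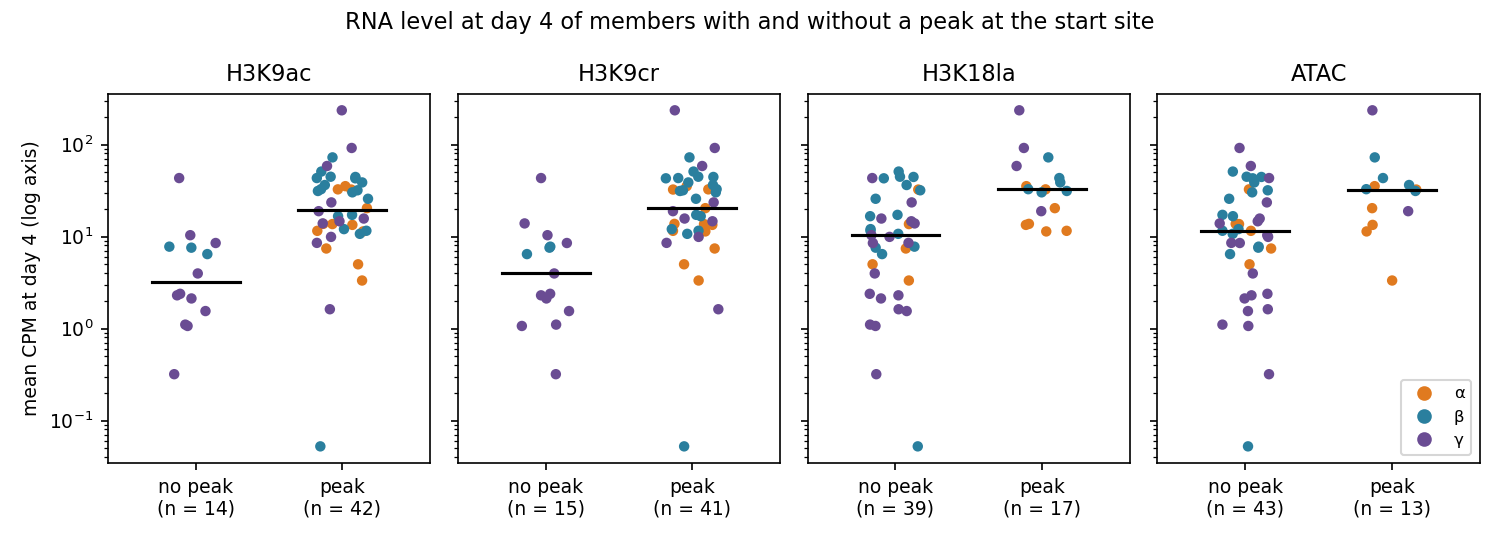
Mean CPM at day 4 (log axis) of 56 members with 1 row each, without and with a peak within 1 kb of the start site, for H3K9ac, H3K9cr, H3K18la and ATAC. A peak was counted only where both lists of a kind had one. Points are members coloured by cluster and lines are medians, which for H3K9ac are 3.18 without and 19.6 with a peak.

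The fold enrichment over background that the authors' peak caller gave was used to describe peaks within a list. In the first H3K9ac list of day 4 the Pcdhb11 peak had an enrichment of 114, which placed it in the top 1.74% of that list, and in the second of 104, in the top 2.97%. The peak at Pcdhb22 had 14.1 and 7.75, at the top 41.9% and 55.8%. The peak at Pcdhgc3 was 3384 and 3418 bases wide with 75.8 and 59.2. The 2 leading β members per kilobase therefore had peaks of very different rank.

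With DMSO at day 2, H3K9ac lay at 37 of 57 start sites (background 60.4%), H3K9cr at 35 (60.3%) and H3K18la at 25 (52.4%). With MS-275, from 1 library per list, H3K9ac lay at 37 (66.0%) and H3K9cr at 34 (65.1%), while H3K18la lay at 5 (20.5%). Equal counts for H3K9ac hid an exchange: 31 start sites had it in both lists (background 60.1%), 6 in the DMSO list alone and 6 in the MS-275 list alone. A peak in the DMSO list alone was held by 0.298% of background start sites, and one in the MS-275 list alone by 5.96%. For H3K9cr 30 were in both (background 59.8%), 5 in the DMSO list alone (background 0.500%) and 4 in the MS-275 list alone (5.29%).

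The 6 start sites with H3K9ac in the DMSO list alone were Pcdhb1 and 5 neighbours near the start of the γ cluster, Pcdhga2, Pcdhga3, Pcdhgb1, Pcdhga4 and Pcdhga5. Their DMSO peaks were weak, with enrichments from 3.80 for Pcdhb1 to 11 for Pcdhgb1, all under the list's median of 13.8. Pcdhga2 to Pcdhga5 and Pcdhgb1 again had H3K9ac peaks at day 4. Those with H3K9ac in the MS-275 list alone were Pcdhb4, Pcdhb9, Pcdhb10, Pcdhb15, Pcdhgb8 and Pcdhgc5, with enrichments of 3.10 to 5.81 where that list's median was 4.73. The RNA of these 6 members was not called changed, with an adjusted p from 0.0509 for Pcdhb15 to 0.333 for Pcdhgc5, and Pcdhb10 and Pcdhb15 were called when low counts were not filtered. Of the 5 tested members with a peak in the DMSO list alone, 4 fell, and of 31 with a peak in both lists 25 fell and 1 rose. Of 13 with a peak in neither list 8 fell and 1 rose. Of all members tested 64.9% fell, and of all genes tested 31.4%. The MS-275 list held 84418 H3K9ac peaks and the DMSO list 26555, so presence in a list also reflects how much was called.

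For H3K18la 5 start sites had a peak in both lists, 20 in the DMSO list alone and none in the MS-275 list alone, and no β start site had one with MS-275. The 5 were Pcdha3, Pcdha8, Pcdhac2, Pcdhgc3 and Pcdhgc4. Of the background start sites, 33.8% had H3K18la in the DMSO list alone, 18.5% in both and 1.93% in the MS-275 list alone. RNA fell for 15 of the 20 members with a peak in the DMSO list alone and for 19 of 30 with a peak in neither list. Of the 5 with a peak in both lists 3 fell and 1 rose. These counts stand beside 64.9% of all members tested and 31.4% of all genes tested. Pcdha8 had an enrichment of 18.2 in the DMSO list, in its top 1.37%, and of 4.39 in the MS-275 list, in its top 30.4%.

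Some peaks lay away from the start sites, most of those given here beyond the last variable exons. A peak 34.7 kb after the start of Pcdhac2 was in all 14 lists, with an H3K9ac width of 1753 bases with DMSO, 4376 with MS-275 and 2878 and 2894 at day 4. At the end of the γ cluster, 22.3 kb after the start of Pcdhgc5, the H3K18la peaks ranked in the top 1.31% to 2.19% of each of the 4 lists by enrichment. There the H3K9ac peak was 2469 bases wide with DMSO and 5282 with MS-275. Another site lay 5.8 kb after the start of Pcdhgc5, where the width was 1966 bases with DMSO and 5848 with MS-275. A peak about 5.6 kb before Pcdhgc3, and so before the last γ variable exons, was in none of the DMSO lists. It was in the MS-275 lists of H3K9ac and H3K9cr, and in all 6 ChIP lists of day 4.

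Together the H3K9ac peaks covered 6.99% of the γ cluster with DMSO and 17.4% with MS-275, and those of H3K9cr 6.78% and 17.0%. Of the β cluster H3K9ac peaks covered 3.54% and 4.82%, and of the α cluster 4.37% and 6.99%. H3K18la peaks covered 3.08% of α, 1.72% of β and 5.46% of γ with DMSO, and 0.991%, 0% and 4.18% with MS-275. In the β cluster, where RNA fell most, H3K9ac coverage was thus no lower with MS-275 and no H3K18la peak was listed. The whole H3K9ac list held 26555 peaks (median width 1069 bases) with DMSO and 84418 (827 bases) with MS-275. The H3K9cr lists held 24874 and 70748 peaks, and the H3K18la lists 36382 and 31577. Coverage outside the clusters was not computed, so none of these differences is shown to be particular to the clusters.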

How the data were processed

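RNA-seq, ChIP-seq and ATAC-seq of the samples above were used as deposited. The authors deposited estimated counts per Ensembl gene from Salmon 1.1.0, per the submitters' processing notes, which also name Bowtie2 2.4.1, MACS2 2.2.7.1, DESeq2 1.26.0 and GRCm38. How Salmon was set to divide reads of shared exons is not given in these sources. The deposited peak lists give pileup signal, −log10 p and q values and fold enrichment, per the file headers, for 1 library each.

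Estimated counts were rounded and fitted with edgeR 4.0.16 in R 4.3.3 over all 10 RNA libraries (5 groups, no replicate block, TMM scaling, filterByExpr), with Benjamini-Hochberg adjustment over 17789 genes. The procedure was tested on simulated data. Peaks were counted within 1 kb of RefSeq gene starts and described without tests. Background starts of protein-coding genes came from a RefSeq promoter table that lacks the chromosome of the clusters. Alternatives were DESeq2 1.42.0, its size factors, no filter, only the libraries compared, a replicate block, leaving out each library, other windows and a −log10 q of at least 5.

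Members and gene lists were chosen with earlier results of these data known. Named members were the C-type members, the 2 highest of each cluster per group, and per comparison the 5 largest called rises and falls among members with at least 1 CPM. The rule asked for levels per kilobase, which was possible only for single-exon β genes; α and γ members were ranked by CPM. Replicate numbers were checked for pairing: over 10 pairs of groups the correlation of same-numbered deviations was -0.031 to 0.038, so the numbers were not taken to pair libraries. Totals per library are above and intervals for counting error were not needed. No sequences are printed. The 4 input libraries were not analysed here.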

Additional observations from a re-analysis of the deposited data

How the results depend on the processing

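No result reversed. The counts of members called higher or lower stayed within 1.5 times in every comparison except as follows. From day 0 to day 4 the 1 member called lower became 2 with only the 4 libraries compared and ranged from 0 to 1 with 1 library left out. From day 4 to day 8 the members called higher ranged from 17 to 21 with 1 library left out, and the 1 called lower became 0 in DESeq2 and ranged from 0 to 1. With MS-275 the 2 called higher became 1 without DMSO replicate 2. From day 0 to day 2 with DMSO the 7 called lower became 3 to 7. On the plain library total the α total was 88.5 CPM with DMSO and 63.7 with MS-275, the β total 163 with DMSO and 56.2 with MS-275, or 600.3 at day 4, and the γ total 129 at day 0, 555 at day 4 and 243 with MS-275. With DESeq2 size factors the β total with DMSO was 165 and the γ total at day 4 was 571. Peaks of H3K18la in the clusters with MS-275 numbered 18, and 11 at a −log10 q of at least 5. ATAC peaks lay at 13 start sites in both lists and at 16 to 25 in a single list, and their 18 peaks in the clusters became 22 to 31.

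With a replicate block, in a design whose numbers do not pair the libraries, 48 members were higher at day 4, 27 were higher at day 8 than at day 4 (Pcdhga8 added) and 38 were lower with MS-275 (Pcdhga10 added). Depth limits the members under 1 CPM, whose changes rest on a few reads. Peak lists from 1 library give no spread, and the cause of differences between settings was not tested.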

Other observations

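RefSeq places Pcdha10 at 37005320 of chromosome 18, and no row of the count table maps to that symbol. A peak lay at that start in every list but the H3K18la list with MS-275, with an H3K9ac enrichment of 33.5 and a summit 179 bases after the start in the DMSO list.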
